A study of Mus musculus with 10 samples.

Results

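The genes described here are 44 cell cycle genes, chosen by symbol. They were 20 genes of DNA replication (S phase), 21 genes of G2 phase and mitosis (G2/M) and 3 cyclins of G1 phase and of entry into S phase, Ccnd1, Ccne1 and Ccne2. All 44 were found among the 31053 genes of the droplet files and among the 55453 genes of the plate files. They were followed across mesenchymal, endothelial, B-precursor, erythroid and granulocyte cells and across ages. Single-cell RNA sequencing had been carried out on the mouse supraspinatus tendon enthesis, where a shoulder tendon joins bone. In 3 libraries, 10x Genomics droplets were used on entheses pooled from wild-type C57BL/6 mice of postnatal day 11 (P11), 18 (P18) or 56 (P56). Lysis of red cells and a sort for cells without staining for Cd45, found on leukocytes, or for DAPI, which enters dead cells, came first. In 7 further libraries, cells of Gli1CreERT;Ai14 mice were sorted into 96-well plates at P7 and P14, at P11 and P18 as in the droplets, and at P21, P28 and P42. Tamoxifen, injected into these mice at P5 and P7, marks cells in which Gli1, a factor that acts in Hedgehog signalling, is expressed, together with their descendants. At P7 the tissue was taken at the age of the last dose. The labels' sort description for the plates does not make clear whether red fluorescent cells were taken or discarded, and P14 is missing from its ages. Each age was 1 library of pooled tissue in each assay, so no age had a replicate and the number of animals behind a library was not stated.

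A cell that divides copies its DNA in S phase and separates the copies in mitosis. The Mcm proteins unwind DNA at replication forks, Pcna clamps the polymerase to it, and Rrm1, Rrm2 and Tyms make its building blocks. In G2 and mitosis, Cdk1 with cyclins A and B, the kinases Plk1, Aurka and Aurkb, kinesin motors and centromere proteins condense, attach and separate chromosomes, and Ube2c and Cdc20 then direct proteins for destruction. Many S-phase genes are known targets of E2F factors, while many G2/M genes carry a CHR element and CCAAT boxes bound by the DREAM complex, B-Myb, FoxM1 and NF-Y. In growing tendon and cartilage, dividing cells become fewer with age, whereas precursors of B cells, red cells and granulocytes divide rapidly in bone marrow.

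Promoter windows of the most abundant members of either phase are shown for the motifs that these factors are known to bind. RefSeq promoter windows (build GRCm38.p6, 250 bases before to 50 bases after the start) were matched for 36 of the 44 genes, of which 17 were S-phase genes, 18 were G2/M genes and 1 was a cyclin. Mcm7 and Uhrf1 had 2 windows each. Mcm4, Gins2, Tipin, Ccna2, Tpx2, Aurkb, Ccne2 and Ccnd1 were not matched. Both strands were searched for E2F motifs (TTTCCCGC, TTTGGCGC, TTTCGCGC or TTTGCCGC), for CHR motifs (TTTGAA or TTTAAA) and for CCAAT. The 3 S-phase and the 3 G2/M genes with the most UMIs (counted molecules) over the droplet libraries are printed below 5′ to 3′ in the direction of the gene, with motif matches on either strand in capitals. ATTGG is CCAAT on the opposite strand, TTCAAA is TTTGAA on the opposite strand, and TTTAAA reads the same on both. Slbp, Rrm2 and Pcna held 0 E2F matches and Rrm2 held a CHR match. Mcm6 was added after its matches were seen, because it holds 3 E2F matches. In the droplet gene list these are Slbp (ENSMUSG00000004642), Rrm2 (ENSMUSG00000020649), Pcna (ENSMUSG00000027342), Mcm6 (ENSMUSG00000026355), Top2a (ENSMUSG00000020914), Ube2c (ENSMUSG00000001403) and Cenpa (ENSMUSG00000029177).
Slbp: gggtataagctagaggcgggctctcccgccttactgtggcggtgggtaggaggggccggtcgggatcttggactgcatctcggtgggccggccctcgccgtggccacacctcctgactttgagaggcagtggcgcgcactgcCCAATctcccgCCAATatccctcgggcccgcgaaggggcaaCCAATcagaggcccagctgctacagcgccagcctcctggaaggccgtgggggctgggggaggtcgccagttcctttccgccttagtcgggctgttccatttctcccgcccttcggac
Rrm2: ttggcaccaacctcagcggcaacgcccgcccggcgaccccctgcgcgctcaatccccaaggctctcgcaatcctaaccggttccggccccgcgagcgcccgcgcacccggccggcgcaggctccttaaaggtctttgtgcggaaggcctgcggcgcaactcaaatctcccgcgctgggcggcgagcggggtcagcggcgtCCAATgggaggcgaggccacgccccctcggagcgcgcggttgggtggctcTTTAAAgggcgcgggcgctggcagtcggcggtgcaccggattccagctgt
Pcna: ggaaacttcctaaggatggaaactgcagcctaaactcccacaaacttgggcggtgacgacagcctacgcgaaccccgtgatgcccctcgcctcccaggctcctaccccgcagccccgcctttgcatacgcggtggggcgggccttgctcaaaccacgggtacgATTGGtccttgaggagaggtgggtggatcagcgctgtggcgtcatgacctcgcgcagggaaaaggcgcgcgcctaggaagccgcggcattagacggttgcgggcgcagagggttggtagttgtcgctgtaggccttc
Mcm6: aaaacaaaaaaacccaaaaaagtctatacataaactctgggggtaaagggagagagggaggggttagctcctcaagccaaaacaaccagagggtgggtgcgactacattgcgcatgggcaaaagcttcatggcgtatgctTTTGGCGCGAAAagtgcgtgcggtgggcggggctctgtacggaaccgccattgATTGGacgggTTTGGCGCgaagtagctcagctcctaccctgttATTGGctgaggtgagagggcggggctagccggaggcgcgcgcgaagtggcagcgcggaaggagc
Top2a: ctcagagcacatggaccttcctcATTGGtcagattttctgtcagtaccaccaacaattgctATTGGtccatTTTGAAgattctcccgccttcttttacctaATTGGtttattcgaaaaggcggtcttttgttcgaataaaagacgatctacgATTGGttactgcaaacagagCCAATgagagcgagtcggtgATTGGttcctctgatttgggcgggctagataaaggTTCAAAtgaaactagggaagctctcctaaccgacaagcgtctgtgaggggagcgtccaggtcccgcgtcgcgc
Ube2c: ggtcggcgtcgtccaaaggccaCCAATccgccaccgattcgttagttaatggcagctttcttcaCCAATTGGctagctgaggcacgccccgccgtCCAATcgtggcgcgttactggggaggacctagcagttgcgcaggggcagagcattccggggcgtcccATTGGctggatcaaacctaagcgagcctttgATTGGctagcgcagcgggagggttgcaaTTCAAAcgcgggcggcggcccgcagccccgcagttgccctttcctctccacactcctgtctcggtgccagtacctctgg
Cenpa: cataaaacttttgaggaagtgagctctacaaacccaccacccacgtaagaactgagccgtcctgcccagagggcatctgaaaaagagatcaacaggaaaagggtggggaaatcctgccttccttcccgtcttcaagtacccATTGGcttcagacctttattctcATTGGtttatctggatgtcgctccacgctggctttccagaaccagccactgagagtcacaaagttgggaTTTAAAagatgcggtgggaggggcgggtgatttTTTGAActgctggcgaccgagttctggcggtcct
The windows lie at chr5:33652525-33652824 on the minus strand for Slbp, chr12:24708004-24708303 on the plus strand for Rrm2, chr2:132253131-132253430 on the minus strand for Pcna and chr1:128359656-128359955 on the minus strand for Mcm6. Those of the G2/M genes lie at chr11:99024140-99024439 on the minus strand for Top2a, chr2:164769679-164769978 on the plus strand for Ube2c and chr5:30666636-30666935 on the plus strand for Cenpa. In Ube2c, CCAATTGG is a pair of overlapping CCAAT matches, and in Mcm6, TTTGGCGCGAAA is a pair of overlapping E2F matches. Top2a and Ube2c each held 6 CCAAT matches, Slbp held 3, Cenpa and Mcm6 held 2, and Pcna and Rrm2 held 1.

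Across the matched windows, E2F letters stood in 9 of 19 S-phase windows (47.4%), in 1 of 18 G2/M windows (5.56%, Cdk1) and in 2.26% of all 32817 windows. A CHR match stood in 16 of 18 G2/M windows (88.9%, all but Bub1 and Nusap1), in 5 of 19 S-phase windows (26.3%) and in 27.6% of all windows. CCAAT stood in 15 of 19 S-phase windows (78.9%), 16 of 18 G2/M windows (88.9%, all but Birc5 and Nusap1) and 37.4% of all windows. At least 2 CCAAT matches were found in 52.6% of S-phase windows, 66.7% of G2/M windows and 11.7% of all windows. E2F letters thus set the S-phase list apart from the G2/M list, CHR letters the reverse, and CCAAT was frequent in both. These are matches of letters in 1 window per start site, not measured binding.

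After filtering, 2882, 5163 and 4920 droplet cells were kept at P11, P18 and P56, from libraries of 40082499 to 53725468 counts, and 86 to 96 wells were kept per plate, with 235722 to 506912 counts. Kept libraries shared between 2 and 8 cell barcodes pairwise. The female transcript Xist was seen in 77.6% (P11), 32.6% (P18) and 0.194% (P56) of the mesenchymal-like cells, so age and the sex of the pooled mice cannot be told apart. Cells were clustered without any cell cycle or histone gene and named "-like" from markers. All 8 mesenchymal markers, all 8 endothelial markers, all 11 immature granulocyte markers, 8 of 10 B-precursor markers (not Erg or Cd93) and 8 of 12 erythroid markers (not Klf1, Rhd, Ermap or Tfrc) were at least 2-fold higher in their class than in other cells. Levels are CPM, a gene's UMIs scaled to 1000000 UMIs of its class. These are 3′ counts without length scaling, so levels of different genes are compared only as shares of UMIs. Intervals are exact 95% Poisson or binomial intervals and cover counting error only. A lower summed level can come from fewer expressing cells or from less RNA per cell, which summed counts cannot tell apart.

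In mesenchymal-like cells, S-phase and G2/M genes were at the same summed level at P11 and parted afterwards. The 20 S-phase genes had a summed level of 269 CPM (264 to 275; 2240 cells) in the P11 library, 223 CPM (216 to 230; 1457 cells) in that of P18 and 252 CPM (246 to 257; 4119 cells) in that of P56. The 21 G2/M genes summed to 267 CPM (261 to 272), 47.4 CPM (44.1 to 50.9) and 56.6 CPM (54.0 to 59.3). The G2/M sum was thus lower at both later ages, while the S-phase sums stayed within a narrow band. The ratio of S-phase to G2/M counts was 1.01 (0.979 to 1.04), 4.70 (4.35 to 5.09) and 4.45 (4.23 to 4.68) in age order. As the numerator and denominator are different genes, 1 marks equal summed counts and not equal numbers of cells in either phase. Different clusters held most of the class at different ages, those led by Col6a6 and Mfap4 at P11 and those led by Angptl7, Inmt, C4b and Crabp2 at P56.

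**Figure D1:**
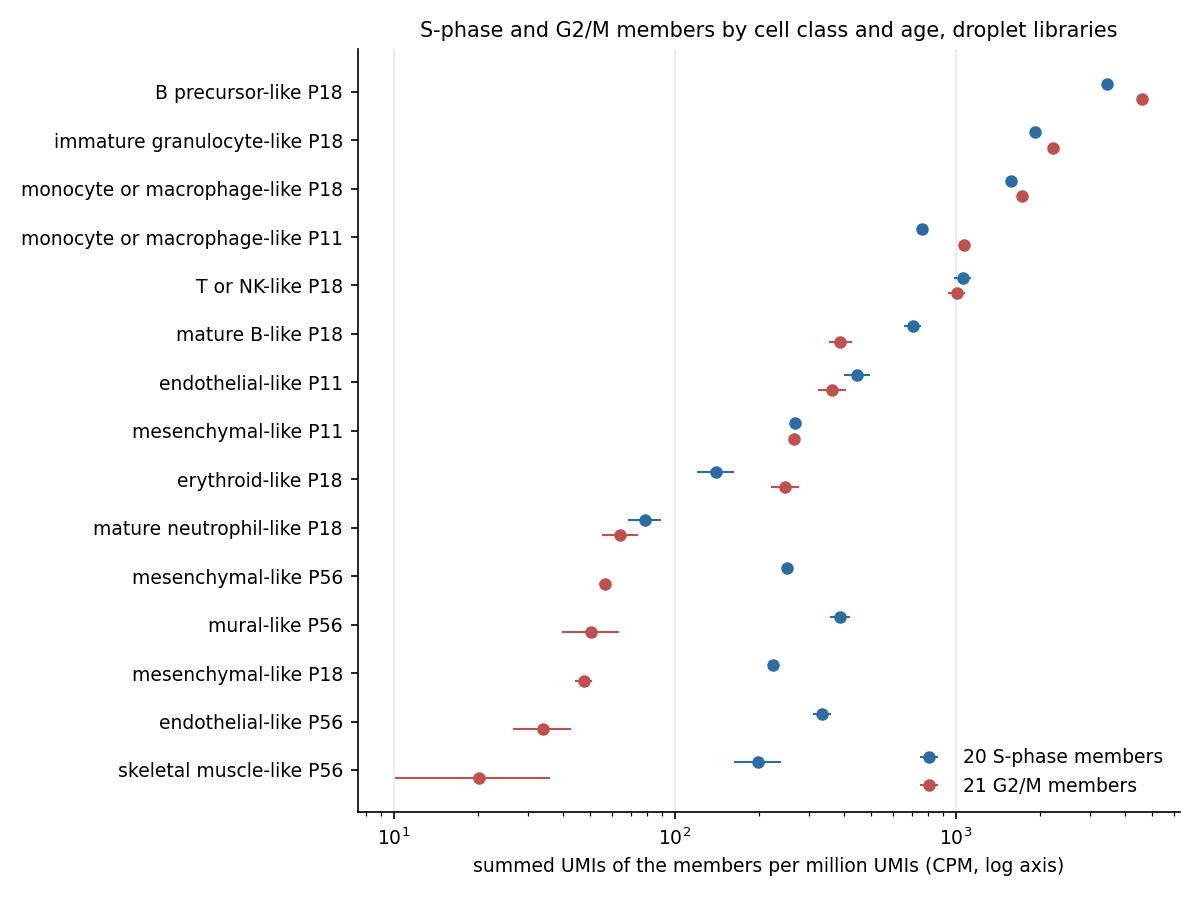
Summed level of the S-phase genes and of the G2/M genes (CPM, log axis) in each cell class and age with at least 50 cells (mesenchymal-like subclasses joined), sorted by the G2/M level; bars are exact Poisson 95% intervals. The B-precursor-like cells stand at the top with 3460 CPM for S phase and 4590 CPM for G2/M, and in the mesenchymal-like cells of P18 and P56 the S-phase level lies 4.70 and 4.45 times above the G2/M level.

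Not all of the G2/M signal need come from the cell it was counted in. At P18, mature neutrophil-like cells, which no longer divide, gave 64.0 CPM of G2/M genes and 78.4 CPM of S-phase genes. To count cells, each cell was thinned to 2000 UMIs, and a cell counted when it held UMIs of at least 2 G2/M genes. The share was 0.704% (4 of 568) in these mature neutrophils, with a median of 4055 UMIs per cell before thinning, and 0.349% (5 of 1432; 0.113 to 0.813%) in the mesenchymal-like cells of the same library, with a median of 10364 UMIs. In sum and share the P18 mesenchymal-like cells thus did not exceed the mature neutrophils, so their share was not shown to lie above background. The comparison cannot show either that the P18 signal is background, because different genes made up the sums. The mesenchymal share was 0.758% without doublet removal. Gene by gene the classes differed, since Cenpa (28.0 CPM) and Kif23 (16.8 CPM) gave most of the neutrophil sum, while Top2a was 7.22 CPM in mesenchymal-like cells against 3.15 CPM and Mki67 3.67 against 1.05 CPM. At P18, 1 mesenchymal-like cell also lay far above this level, with 87 G2/M UMIs of 15 genes and 80 S-phase UMIs. At P11 the mesenchymal share was 2.63% (58 of 2205; 2.0 to 3.39%; median 14164 UMIs). At P56 it was 0.173% (7 of 4044; 0.0696 to 0.356%; median 6299 UMIs), and skeletal muscle-like cells of that library gave 20.2 CPM of G2/M genes (10.1 to 36.1) with 0 of 102 cells, which allows a share of up to 2.94% (median 2931 UMIs). The P56 share was 0.0882% without the cluster led by Crabp2. Without thinning the shares were 7.68%, 4.19% and 0.947%. The share of cells with at least 2 S-phase genes was 8.03%, 6.91% and 7.79% in thinned cells, close to level over the 3 ages. P11 was therefore the age at which G2/M genes met together in single mesenchymal-like cells most often.

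Among the G2/M members, the 6 with the most UMIs were all highest at P11 in mesenchymal-like cells. Ube2c, the ubiquitin-conjugating enzyme of the anaphase-promoting complex, was at 32.4 (30.5 to 34.4), 2.74 (1.99 to 3.68) and 8.16 CPM (7.20 to 9.21) from P11 to P56. Top2a, which untangles DNA before mitosis, was at 27.9 (26.1 to 29.7), 7.22 (5.97 to 8.66) and 4.44 CPM (3.74 to 5.23). For both, the P11 interval lay above the others, with P18 lowest for Ube2c and P56 lowest for Top2a. Cenpa, the histone variant that marks centromeres, was at 19.6, 6.04 and 3.81 CPM. Mki67, the coat protein of mitotic chromosomes, was at 15.9, 3.67 and 2.44 CPM. Birc5, or survivin, which places the Aurkb complex on chromosomes, was at 15.9, 2.12 and 3.88 CPM, and the spindle protein Nusap1 at 11.5, 2.43 and 3.10 CPM. Cenpa and Mki67 thus followed the order of Top2a, and Birc5 and Nusap1 that of Ube2c. The other 15 G2/M members lay between 1.65 (Bub1) and 22.0 CPM (Cdk1) at P11, between 0.0623 (Hmmr) and 7.97 CPM (Cdc20) at P18, and between 0.281 (Bub1) and 5.60 CPM (Cdc20) at P56. The 0.0623 CPM of Hmmr, a microtubule-binding spindle protein, is 1 UMI.

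**Figure D2:**
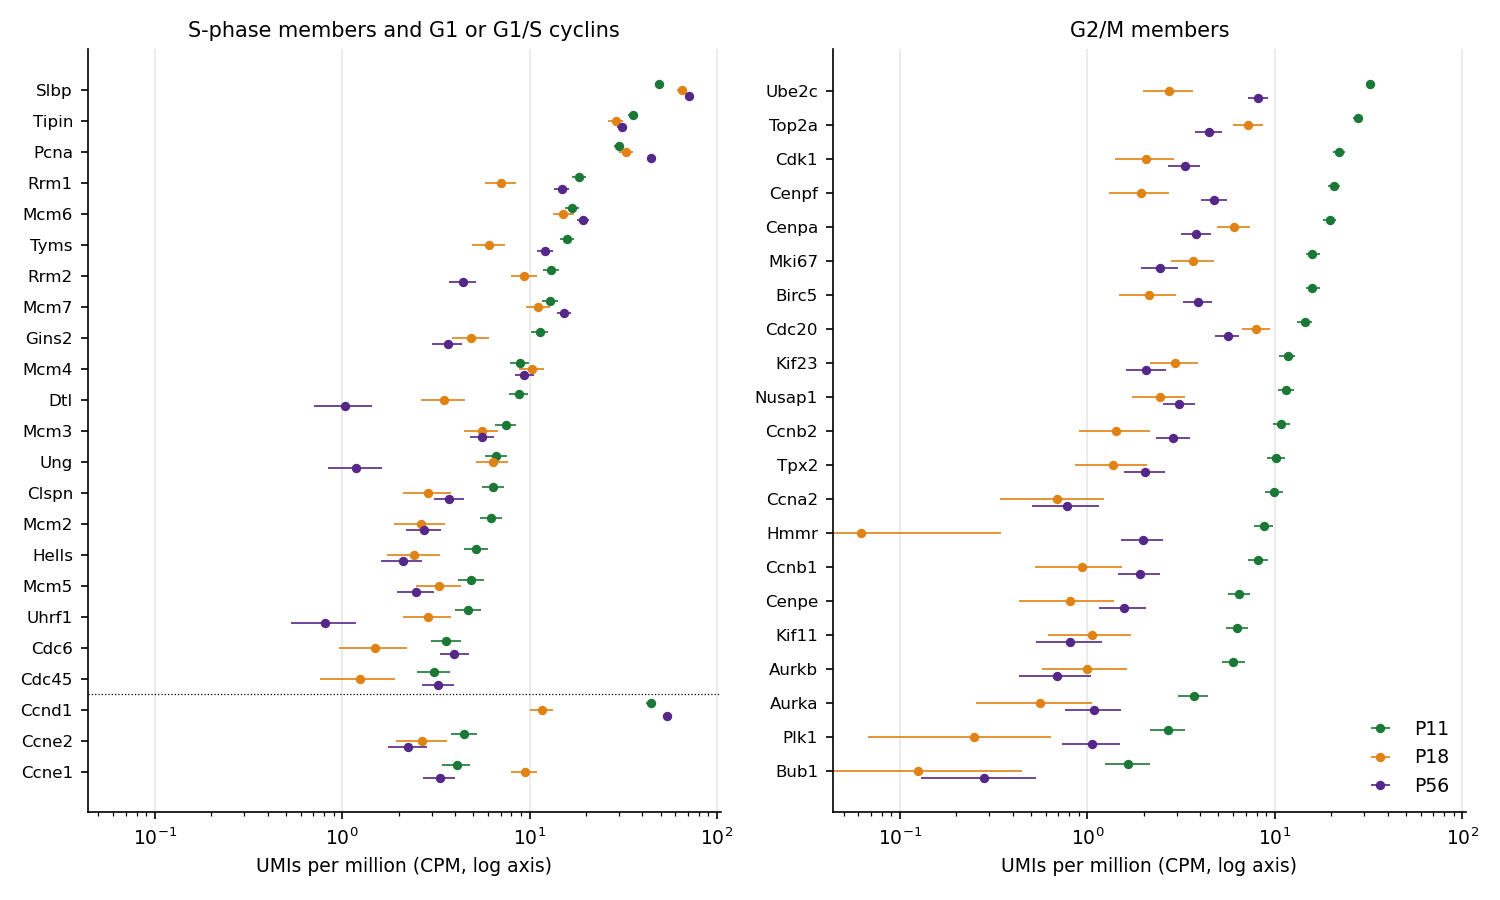
Level of each of the 44 genes at each droplet age in mesenchymal-like cells (CPM, log axis), grouped by role; bars are exact Poisson 95% intervals. The P11 points of the G2/M genes stand to the right of both later ages, whereas Slbp, Pcna, Mcm7, Mcm6 and Ccnd1 are highest at P56.

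With a 2-fold difference as the rule, among genes with at least 50 UMIs over the ages compared, which all 44 members had, 21 of 21 G2/M genes were lower at P56 than at P11 (median log2 difference -2.15), against 10.6% of all 12821 genes. At P18, 20 of 21 were lower than at P11 (median -2.91), against 11.3% of 12500 genes. Cdc20, the activator of the anaphase-promoting complex, was the exception at -0.86. Of the 20 S-phase genes, 7 were lower at P56 (median -0.41) and 9 at P18 (median -0.64). The share of all genes at least 2-fold higher was 7.68% at P56 and 6.82% at P18, and 0 G2/M and 0 S-phase members were among them. Over all genes the median difference was 0.03 at P56 and -0.21 at P18. These are single libraries, so the counts describe them and no test was possible.

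The S-phase genes differed among themselves. Those at least 2-fold lower at P56 were Dtl (-3.09), Uhrf1 (-2.53), Ung (-2.48), Gins2 (-1.63), Rrm2 (-1.56), Hells (-1.31) and Mcm2 (-1.20). Dtl is a substrate receptor for proteins destroyed at replication forks, Uhrf1 maintains DNA methylation on copied DNA, and Ung removes uracil. Ung was 6.62, 6.35 and 1.19 CPM from P11 to P56, so its difference lay after P18. Rrm2, the ribonucleotide reductase subunit tied to S phase, was 13, 9.34 and 4.41 CPM, lower at each later age. Its partner Rrm1 was 18.3, 7.04 and 14.8 CPM, lowest at P18. Slbp, which binds histone messenger RNA, was 49.3 (46.9 to 51.7), 65.2 (61.3 to 69.3) and 70.6 CPM (67.7 to 73.5). Pcna was 30 (28.2 to 31.9), 32.7 (30 to 35.6) and 44.4 CPM (42.2 to 46.8). Slbp and Pcna were therefore higher at P56 than at P11 by 0.52 and 0.57 on the log2 scale, beyond counting error. Mcm6 was 16.9, 15.1 and 19.3 CPM and Mcm7 was 12.9, 11.1 and 15.3 CPM. Tipin, which steadies stalled forks, was 35.6, 28.8 and 31.2 CPM. These 3 genes differed by less than 2-fold between ages. Beyond counting error, Mcm6 and Mcm7 were lower at P18 than at P56, and Tipin was lower at both later ages than at P11. The other 14 S-phase members lay between 3.09 (Cdc45) and 18.3 CPM (Rrm1) at P11, between 1.25 (Cdc45) and 10.3 CPM (Mcm4) at P18, and between 0.813 (Uhrf1) and 14.8 CPM (Rrm1) at P56. Together Slbp, Pcna and Tipin thus held a large part of the S-phase sum at the ages when G2/M genes were low.

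Of the cyclins, Ccnd1 and Ccne1 did not follow either list, while Ccne2 was lower at both later ages than at P11. Ccnd1, the D cyclin that answers growth signals, was 44.2 (41.9 to 46.5), 11.6 (10.0 to 13.4) and 53.9 CPM (51.4 to 56.5) from P11 to P56. Ccne1, which activates Cdk2 at the start of S phase, was 4.08, 9.40 and 3.31 CPM, and its relative Ccne2 was 4.49, 2.68 and 2.25 CPM. Ccnd1 was thus lowest and Ccne1 highest at P18, at -1.92 and 1.21 on the log2 scale against P11. At P56, 0 of the 3 cyclins differed from P11 by 2-fold.

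The G2/M counts of mesenchymal-like cells sat in few cells, and the S-phase counts in many. At P11, P18 and P56, 16, 32 and 3 cells held 50% of all G2/M UMIs, and 247, 290 and 758 cells held 50% of all S-phase UMIs. Cells with at least 10 G2/M UMIs numbered 60 at P11 (2.68% of cells), 6 at P18 (0.412%) and 8 at P56 (0.194%), and held 90.0%, 37.6% and 73.3% of the G2/M UMIs. Without these cells the G2/M level was 27.7, 29.8 and 15.2 CPM, and the S-phase level 207, 205 and 248 CPM. Outside the few cells rich in G2/M genes, the S-phase level was therefore as high at P18 and P56 as at P11. At P56 a single cell carried 612 of the 1811 G2/M UMIs (33.8%), and the level without it was 37.5 CPM. Of the 7 thinned P56 cells counted above, 4 were in the cluster led by Crabp2, which held 65.4% of the G2/M UMIs. Of the 58 cells at P11, 36 were in the cluster led by Col6a6, which held 67.5%.

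Which S-phase genes go with G2/M genes in the same cell was examined at P11. Mesenchymal-like cells with UMIs of at least 2 G2/M genes (172 cells, median 16887 UMIs) were set beside those with none (1585 cells, median 13548 UMIs). The S-phase sum was 982 CPM in the first and 186 CPM in the second, which held 46.2% of all S-phase UMIs. Uhrf1 was 36.9 times higher in the first, Rrm2 22.2 times, the chromatin remodeller Hells 20.7 times, Mcm5 20.2 times, the helicase factor Cdc45 13.9 times, the checkpoint mediator Clspn 12.3 times and Tyms 12.1 times. At the other end stood the licensing factor Cdc6 (2.58), Tipin (2.24), Ung (2.19) and Slbp (1.96). The median over the 20 genes was 7.65, and 15 of 20 were more than 4 times higher. The share of all genes more than 4 times higher between these sets of cells was not counted. Of the cyclins, Ccne2 was 13 times higher, Ccne1 4.71 times and Ccnd1 2.12 times. In cells with no G2/M UMI, Slbp, Tipin and Pcna supplied 1000, 713 and 486 of the 4151 S-phase UMIs. The 2 sets of cells were chosen by G2/M counts, so deeper cells enter the first set more easily, and the part of depth in these ratios was not tested beyond the medians given. The corresponding median was 3.0 at P18 and 2.73 at P56, where cells without G2/M UMIs held 83.3% of the S-phase UMIs. In B-precursor-like and immature granulocyte-like cells it was 14.4 and 12.7, and such cells held 1.20% and 0.897%. These shares also follow the number and depth of the cells without G2/M UMIs, which were 3690 of 4119 cells at P56 (median 6171 UMIs), 439 of 1694 B-precursor-like cells (median 2409) and 90 of 462 immature granulocyte-like cells (median 9117). In such cells the S-phase sum was 246, 475 and 192 CPM.

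The subclasses named from markers within the mesenchymal-like class differed in both sums. Connective-tissue fibroblast-like cells had 377 CPM of S-phase and 434 CPM of G2/M genes at P11, and tendon fibroblast-like cells had 175 and 166 CPM. Osteoblast-like cells had 199 and 183 CPM, and chondrocyte-like cells 230 and 86.6 CPM. The ratio of S-phase to G2/M counts at P11 was 0.869, 1.05, 1.09 and 2.66 in this order, so chondrocyte-like cells held the fewest G2/M counts per S-phase count. At P18 the G2/M level was 35.8 CPM in connective-tissue fibroblast-like, 45.0 in tendon fibroblast-like, 34.9 in osteoblast-like and 57.5 in chondrocyte-like cells. All lay below the 64.0 CPM of mature neutrophils, a sum given mostly by Cenpa and Kif23. At P56 the G2/M level was 79.2 CPM in connective-tissue fibroblast-like and 15.5 CPM in tendon fibroblast-like cells, the latter below the 20.2 CPM of muscle. Single cells weighed on several of these values. Without the cell richest in G2/M UMIs the level was 39.4 CPM in chondrocyte-like and 99.2 CPM in osteoblast-like cells at P11, 23.8 CPM in tendon fibroblast-like cells at P18 and 47.3 CPM in connective-tissue fibroblast-like cells at P56. Tendon fibroblast-like cells had 257 CPM of S-phase genes at P56, a ratio of 16.6. Top2a ranged from 4.92 to 47.2 CPM over the subclasses at P11, from 4.48 to 9.37 at P18 and from 0.863 to 6.34 at P56, and Mki67 from 2.59 to 28.6, from 2.34 to 4.47 and from 0.108 to 3.67 CPM. Slbp ranged only from 33.2 to 62.7, from 51.8 to 71.7 and from 65.4 to 72.1 CPM, and Pcna from 19.5 to 38.8, from 22.3 to 37.5 and from 40.5 to 46.8 CPM. The subclasses thus lay closer together, by fold, in Slbp and Pcna than in Top2a and Mki67 at each age. Ccnd1 ranged from 6.22 to 85.6 CPM at P11, from 4.10 to 45.3 CPM at P18 and from 38.1 to 64.0 CPM at P56.

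In the mesenchymal-like class, 5 clusters held enough cells at both P11 and P18. In 2 of them the G2/M level was lower at P18 whether or not the cell richest in G2/M UMIs was left out. The level was 442 and 39.4 CPM in the cluster led by Col6a6 (11.2-fold), 183 and 34.9 CPM in that led by Dkk1 (5.24-fold), 163 and 47.0 CPM in that led by Tnn (3.47-fold), 67.3 and 38.9 CPM in that led by Msmp (1.73-fold) and 95.3 and 66.5 CPM in that led by Matn1, a cartilage matrix gene (1.43-fold). The S-phase level differed by 1.42, 0.905, 1.03, 1.39 and 0.776-fold in the same order. Without the cell richest in G2/M UMIs at each age, an alternative added after seeing the data, the P11 and P18 levels were 406 and 26.9 CPM in the Col6a6 cluster and 99.2 and 24.2 CPM in the Dkk1 cluster. They were 20.2 and 24.4 CPM in the Tnn cluster, 23.6 and 36.2 CPM in the Msmp cluster and 26.6 and 49.3 CPM in the Matn1 cluster, where P18 was then the higher age. In these 3 clusters 1 cell held 293 of 334, 53 of 81 and 183 of 253 G2/M UMIs at P11. In the Matn1 cluster the thinned share with at least 2 G2/M genes was 0.694% at P11 and 0.880% at P18, each resting on at most 3 cells. The Dkk1 cluster also rested on few cells, as 2 of its 103 P11 cells held 50% of the G2/M UMIs. Its thinned share was 1.94% at P11 (2 of 103, 0.236 to 6.84%) and 0.312% at P18 (1 of 321, 0.00789 to 1.72%). Over the whole mesenchymal-like class the levels without the richest cell were 252 and 42.0 CPM.

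Endothelial-like cells were described at P11 (68 cells) and P56 (429 cells), and only 9 were found at P18. Their S-phase genes summed to 446 CPM at P11 (401 to 494) and 334 CPM at P56 (310 to 359), and their G2/M genes to 363 CPM (323 to 407) and 34.0 CPM (26.6 to 42.8). At P11, however, 1 cell held 66.8% of the G2/M UMIs, and the level was 123 CPM without it. The share of thinned cells with at least 2 G2/M genes was 3.03% at P11 (2 of 66) and 0.288% at P56 (1 of 347), and with at least 2 S-phase genes 24.2% and 12.4%. Pcna was 53.6 CPM at P11 and 77.4 CPM at P56, Slbp 76.8 and 80.7 CPM, Mcm7 13.4 and 21.7 CPM, Mcm6 39.0 and 23.1 CPM, and Rrm2 7.31 and 1.41 CPM. Top2a was 37.8 and 5.19 CPM, Ube2c 47.5 and 1.41, Cenpa 24.4 and 5.66, Mki67 30.5 and 2.83, Birc5 24.4 and 0.472, and Nusap1 2.44 and 1.41 CPM. As in mesenchymal-like cells, Slbp and Pcna did not share the lower P56 level of the G2/M genes. Of the 10 members with enough UMIs to be compared (9 S-phase, 1 cyclin), 2 were at least 2-fold lower at P56, Ccnd1 from 296 to 87.3 CPM (-1.76) and Tipin from 48.7 to 23.6 CPM (-1.05). Over all 6088 genes compared, 11.6% were 2-fold lower and 9.00% were 2-fold higher, and 0 members were higher, with a median difference of -0.17. No G2/M gene reached 50 UMIs. With 68 cells at P11 and 429 at P56, a gene that kept its level passed this minimum more easily than a gene lower at P56. The 2 of 10 thus does not describe the whole S-phase list. Below the minimum, Mcm2, Mcm5, Gins2, Rrm2, Uhrf1, Cdc45, Hells and Dtl were more than 2-fold lower at P56, on 6 (Rrm2) to 18 UMIs (Mcm5) at P11. Ung, Cdc6 and Clspn were not. Ccne1 was 4.87 and 2.83 CPM and Ccne2 was 4.87 and 5.19 CPM. At P56, mural-like cells had 389 CPM of S-phase and 50.5 CPM of G2/M genes. In mural-like and skeletal muscle-like cells at P56, Slbp lay between 56.8 and 74.4 CPM, Pcna between 27.5 and 51.2, Top2a between 0 and 3.32 and Mki67 between 0 and 3.32 CPM, and Birc5 was at 0 in both.

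The highest levels of the droplet libraries were in B-precursor-like cells at P18, which carry the surrogate light chain genes and recombinase of early B cells. Such blood cells were present in spite of the sort against Cd45. B-precursor-like cells numbered 48 at P11 and 0 at P56, and immature granulocyte-like cells 14 and 0, too few to describe. At P18 the S-phase genes of B-precursor-like cells summed to 3460 CPM (3430 to 3490) and their G2/M genes to 4590 CPM (4550 to 4620). The ratio was 0.754 (0.745 to 0.763, 1694 cells). Among thinned cells, 56.0% (855 of 1527) held at least 2 G2/M genes and 62.3% at least 2 S-phase genes, and 90.9% of the former were also among the latter. All 41 genes of both lists were higher than in P11 mesenchymal-like cells, S-phase genes by 3.48 (Tipin) to 43.8 times (Uhrf1) with a median of 12.0, and G2/M genes by 8.05 (Kif23) to 29.0 times (Nusap1) with a median of 16.6. The share of all genes higher in this comparison was not counted, and the 2 classes come from libraries of different ages. Top2a was at 799 CPM, Ube2c at 476, Cenpa at 417, Mki67 at 410, Birc5 at 384 and Nusap1 at 334 CPM. Of the S-phase genes, Rrm2 was at 515 CPM, Slbp at 514, Pcna at 285, Mcm7 at 237, Mcm6 at 194 and Tipin at 124 CPM. Rrm2 thus had as many UMIs as Slbp here, whereas in mesenchymal-like cells it had fewer at all 3 ages. Ccnd1 was at 1.84 CPM, Ccne1 at 71.4 and Ccne2 at 110 CPM. Ccnd1 was therefore low in a class where both E cyclins were high. Low Ccnd1 did not go only with high E cyclins, however. In the cluster of this class led by Iglc3, Ccnd1 was at 1.97 CPM with Ccne1 at 1.31 and Ccne2 at 5.25 CPM.

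The B-precursor-like class was not uniform. The cluster led by Myl4 (590 cells) had 4650 CPM of S-phase and 6750 CPM of G2/M genes, a ratio of 0.689, with 94.0% of thinned cells at 2 or more G2/M genes. The cluster led by Dntt, the polymerase that adds bases at antibody gene joints, (443 cells) had 2990 and 4100 CPM, a ratio of 0.730, with 48.6%. The cluster led by Iglc3, an antibody light chain gene, (588 cells) had 622 and 461 CPM, a ratio of 1.35, with 6.26%. The Iglc3 cluster (median 2348 UMIs) thus had the lowest levels of the class. The cluster led by Nrgn (73 cells, median 28403 UMIs) had 3520 and 3100 CPM and a ratio of 1.14. Top2a was 1220 CPM in the Myl4 cluster and 27.6 CPM in the Iglc3 cluster, Rrm2 800 and 15.8 CPM, Cenpa 591 and 154 CPM, and Slbp 696 and 209 CPM. Cenpa and Slbp therefore differed less between these clusters than Top2a and Rrm2. Mature B-like cells had 703 CPM of S-phase and 389 CPM of G2/M genes, a ratio of 1.81 (374 cells).

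Immature granulocyte-like cells at P18 came next, with 1910 CPM of S-phase and 2230 CPM of G2/M genes, a ratio of 0.859 (0.842 to 0.877; 462 cells). Among thinned cells 55.5% (251 of 452) held at least 2 G2/M genes, 53.3% at least 2 S-phase genes, and 71.7% of the former were also among the latter. The share with G2/M genes was thus close to that of B-precursor-like cells, while the summed level was lower. Top2a was at 331 CPM, Ube2c at 324, Birc5 at 208, Mki67 at 185, Cenpa at 176 and Nusap1 at 121 CPM. Rrm2 was at 299 CPM, Slbp at 295, Mcm6 at 132, Pcna at 127, Mcm7 at 125 and Tipin at 95.2 CPM, and Ccnd1, Ccne1 and Ccne2 at 8.64, 21.0 and 52.8 CPM. The class had 2 clusters with opposite ratios. The cluster led by Mcpt8 (217 cells) had 2080 CPM of S-phase and 1700 CPM of G2/M genes, a ratio of 1.22. Its leading genes held Ctsg, Mpo and Elane, proteins of the first granules to form. Among them were also Mcpt8 itself, Cpa3 and Siglech, which are not among the granulocyte markers used. Whether the cluster also held cells other than granulocyte precursors was not tested. The cluster led by Orm1 with Chil3, Camp and Ngp, which come later in maturation, (245 cells) had 1730 and 2800 CPM, a ratio of 0.618. Whether the 2 clusters are stages of a single series was not tested. Ung was 22.8 CPM in the Mcpt8 cluster and 0.235 CPM in the Orm1 cluster, Ccnd1 16.4 and 0.235 CPM, Gins2 37.2 and 12.0 CPM, Mcm6 185 and 74.8 CPM and Hells 82.4 and 39.9 CPM. In the other direction, Ube2c was 207 and 452 CPM and Mki67 113 and 263 CPM. Of the 20 S-phase genes, 16 were higher in the Mcpt8 cluster, though the intervals of Pcna, Uhrf1, Cdc6, Cdc45 and Dtl overlapped between the clusters. The exceptions were Rrm2 (223 and 383 CPM), Slbp (264 and 330 CPM), Tyms (94.7 and 98.3 CPM) and Clspn (41.3 and 42.5 CPM), of which Tyms and Clspn differed within counting error. Of the 21 G2/M genes, 20 were higher in the Orm1 cluster, all but Bub1 (19.8 and 17.1 CPM, within counting error). Among these 20, the intervals of Ccnb1, Aurka and Aurkb overlapped. The share of all genes higher in either cluster was not counted, so these counts of members have no background beside them.

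Mature neutrophil-like cells (629 cells) had far lower levels than the immature granulocyte-like cells, with 78.4 CPM of S-phase and 64.0 CPM of G2/M genes. Slbp (46.5 CPM), Cenpa (28.0 CPM), the kinesin Kif23 (16.8 CPM) and Pcna (14.0 CPM) made up most of this. Top2a was at 3.15 CPM, Rrm2 at 3.15, Ube2c at 2.45, Mcm7 at 2.10, Birc5 at 1.75, Tipin and Nusap1 at 1.40, and Mcm6 and Mki67 at 1.05 CPM. Ccnd1 and Ccne1 were at 0.350 CPM and Ccne2 was at 0. The remaining blood classes lay between these and the precursors. T or NK-like cells had 1060 CPM of S-phase and 1010 CPM of G2/M genes (154 cells), and monocyte or macrophage-like cells 762 and 1070 CPM at P11 (347 cells) and 1570 and 1720 CPM at P18 (344 cells). Different clusters held most of that class at the 2 ages, led by C1qc at P11 and by Ms4a4c at P18. Within the C1qc cluster the G2/M level was 1010 CPM at P11 (333 cells) and 201 CPM at P18 (90 cells). In mature B-like, T or NK-like and monocyte or macrophage-like cells, Top2a ranged from 46.8 to 263 CPM, Rrm2 from 20.3 to 186, Slbp from 93.4 to 306, Pcna from 83.0 to 149 and Ccnd1 from 1.22 to 145 CPM.

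**Figure D3:**
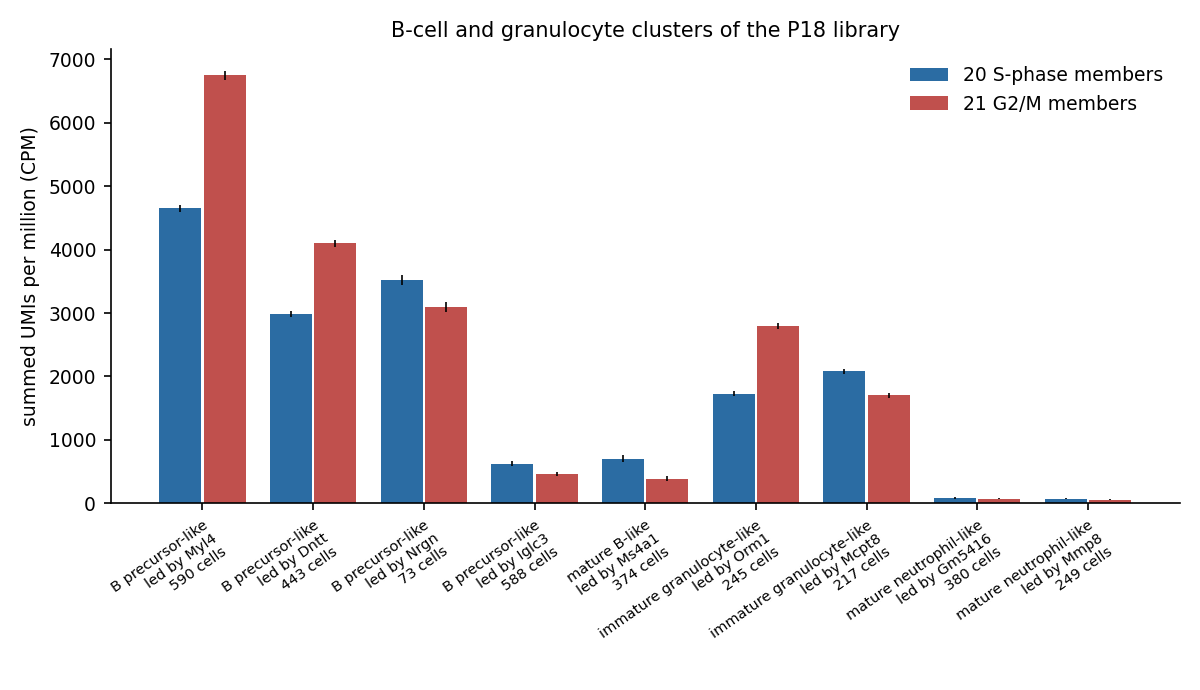
Summed level of the S-phase genes and of the G2/M genes (CPM, linear axis from 0) in the B-cell and granulocyte clusters of the P18 library, each named by its leading gene; bars carry exact Poisson 95% intervals. G2/M exceeds S phase in the Myl4, Dntt and Orm1 clusters, and S phase exceeds G2/M in the Iglc3, Nrgn and Mcpt8 clusters.

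Erythroid-like barcodes were those with at least 1% of counts from haemoglobin genes. At P18 there were 73, with 93.6% of their counts from haemoglobin, and P11 and P56 had 16 and 3. The 73 gave 140 CPM of S-phase (120 to 162) and 247 CPM of G2/M genes (220 to 276), a ratio of 0.566 (0.468 to 0.683), the lowest of all classes described. Haemoglobin lowers these levels, as it fills most of the total. Scaled to UMIs outside the haemoglobin genes, they were 2190 and 3860 CPM. In the 7 barcodes with at least 500 detected genes they were 3520 and 4330 CPM on that scale. The ratio of 0.566 came from 2 kinds of barcode. The 7 barcodes with at least 500 detected genes held 98.9% of the S-phase UMIs and 68.8% of the G2/M UMIs, and immature granulocyte markers made up 0.668% of their counts (1102 UMIs), whose part in these values was not tested. The other 66 held only 2 S-phase UMIs but 97 G2/M UMIs. Of these, 80 were Ube2c, found in 31 of the 66 barcodes, and 11 were Nusap1, found in 9. Small haemoglobin-rich barcodes thus carried Ube2c almost alone among the members. Over all 73, Ube2c was at 79.4 CPM, Slbp at 37.3, Birc5 at 36.5, Rrm2 at 31.0, Nusap1 at 25.4, Top2a at 24.6, Mki67 at 22.2, Pcna at 16.7, Cenpa at 9.53, Mcm7 at 6.35, Mcm6 at 4.76 and Tipin at 2.38 CPM. Ccnd1, Ccne1 and Ccne2 were at 0.794, 2.38 and 6.35 CPM. In 1 barcode lay 41.8% of the G2/M UMIs, and the level was 145 CPM without it. The thinned share with at least 2 G2/M genes was 5.88% (4 of 68). The levels of single genes and this share were taken over all UMIs, haemoglobin included, and are lowered by it.

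Because summed levels differ so widely, the classes were also compared by each gene's share of all UMIs of the 44 genes, over pairs of classes and genes with at least 20 UMIs in both. Between P11 mesenchymal-like and B-precursor-like cells, the shares differed most for Ccnd1 (7.50% and 0.0224%) and Tipin (6.05% and 1.51%) in one direction and for Uhrf1 (0.799% and 2.50%) and Rrm2 (2.21% and 6.26%) in the other. Between P11 mesenchymal-like and immature granulocyte-like cells they did so for Ccnd1 (7.50% and 0.205%) and Ung (1.13% and 0.284%), and for Rrm2 (2.21% and 7.09%) and Mcm5 (0.830% and 2.43%). Ccnd1 was thus the member that weighed most in mesenchymal-like cells by comparison, and Rrm2 the one common to both precursor classes. Between B-precursor-like and immature granulocyte-like cells the shares were 2.46% and 1.17% for Cenpf, 2.50% and 1.20% for Uhrf1, 0.588% and 1.27% for Cdc45, and 0.0224% and 0.205% for Ccnd1. Only 8 genes could be compared with erythroid-like barcodes, where Ube2c was 20.0% of member UMIs, against 5.51% in P11 mesenchymal-like, 5.79% in B-precursor-like and 7.68% in immature granulocyte-like cells. There Pcna was 4.21% and Slbp 9.42%, against 5.10% and 8.37% in P11 mesenchymal-like cells. Against B-precursor-like cells, Top2a was 6.21% in erythroid-like barcodes and 9.71% in B-precursor-like cells, Birc5 9.22% and 4.67%, and Mki67 5.61% and 4.99%. Against immature granulocyte-like cells, Nusap1 was 6.41% in erythroid-like barcodes and 2.87%, Rrm2 7.82% and 7.09%, and Top2a 6.21% and 7.83%.

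Other genes of the cycle were followed as background to the 44. Of 45 further mitosis genes, 42 had enough UMIs, and 33 of these were at least 2-fold lower in mesenchymal-like cells at P18 than at P11 (median -2.24) and 33 at P56 (median -1.75), with 1 higher at P56. Over all genes, 11.3% were lower and 6.82% higher at P18, and 10.6% lower and 7.68% higher at P56. Of the further licensing and replication genes, 6 of 25 were lower at P18 and 9 of 26 at P56. The share called was thus larger for mitosis than for replication genes, as among the members. Of the Rb family and transcription factors, 2 of 12 were lower at either age, a share near that of all genes, and of the other D cyclins and CDKs 0 of 5. Of the inhibitors, 1 of 5 was higher at P18, and at P56 1 of 6 was lower and 2 were higher. Hmgb2, Stmn1 and Cks2 were the most abundant of the list outside the cyclins and inhibitors. Hmgb2, a chromatin protein, was 84.3, 95.2 and 69.2 CPM in mesenchymal-like cells by age, 5070 CPM in B-precursor-like, 3520 in immature granulocyte-like and 1120 CPM in mature neutrophil-like cells. Stmn1, which destabilises microtubules, was 64.2, 28.1 and 21.0 CPM, and 2590 and 999 CPM in the 2 precursor classes. Cks2, a Cdk1 partner, was 39.3, 20.8 and 23.5 CPM, 671 and 711 CPM in the precursors, and 384 CPM in mature neutrophil-like cells. Hmgb2 and Cks2 thus stayed high in mature neutrophils where Top2a and Mki67 did not.

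The inhibitors of cyclin-dependent kinases had patterns of their own. Cdkn1a (p21) was 324 CPM at P11, 994 at P18 and 1360 at P56 in mesenchymal-like cells, 211 and 2020 CPM in endothelial-like cells at P11 and P56, and 63.5 CPM in B-precursor-like cells. Of these values the B-precursor one was lowest. Cdkn1c (p57) was 463, 559 and 80.2 CPM in mesenchymal-like cells, lower at the adult age. Cdkn1b (p27) was 33.8, 36.1 and 35.9 CPM there and 143 CPM in B-precursor-like cells. Cdkn2c was 25.1, 40.0 and 16.4 CPM and Cdkn2d 33.1, 32.8 and 40.9 CPM in mesenchymal-like cells, against 65.7 and 172 CPM in B-precursor-like cells, and Cdkn2d was 142 CPM in immature granulocyte-like and 308 CPM in mature neutrophil-like cells. Cdkn2a (0.150, 0.0623 and 1.09 CPM) and Cdkn2b (0.749, 0.436 and 3.0 CPM) were near the floor of detection. Among the other D cyclins, Ccnd2 was 239, 159 and 134 CPM and Ccnd3 was 76.8, 110 and 63.0 CPM in mesenchymal-like cells. Ccnd3 was 355 CPM in B-precursor-like, 258 in immature granulocyte-like and 377 CPM in mature neutrophil-like cells, where Ccnd1 was 1.84, 8.64 and 0.350 CPM.

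The Gli1-lineage plates allowed a trend over 7 ages to be tested, though with few counts. All kept wells held counts of Col1a1 or Col1a2. From P7 to P42 in order of age, S-phase genes summed to 369, 285, 395, 222, 265, 322 and 336 CPM (166, 100, 200, 86, 82, 76 and 106 counts). G2/M genes summed to 356, 131, 406, 230, 45.2, 29.7 and 247 CPM (160, 46, 206, 89, 14, 7 and 78 counts). S-phase levels thus lay between 222 and 395 CPM, and the P18 interval (178 to 275) was below those of P7 (315 to 430) and P14 (342 to 453). G2/M levels ranged more widely. They were highest at P7 and P14, lowest at P21 and P28, and between these at P11, P18 and P42. The ratio of S-phase to G2/M counts was 1.04, 2.17, 0.971, 0.966, 5.86, 10.9 and 1.36. It was between 0.966 and 1.04 on the 3 plates whose files write counts without decimals (P7, P14 and P18) and between 1.36 and 10.9 on the other 4, and the part of this file layout was not tested apart from its use as a term in the fit.

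Few wells carried the G2/M counts. Wells with at least 2 G2/M genes numbered 9, 4, 7, 1, 1, 0 and 3 from P7 to P42, and wells with at least 2 S-phase genes 22, 17, 30, 9, 13, 16 and 25. The single richest well held 69, 12, 71, 73, 5, 1 and 49 G2/M counts. At P18 and P42, 1 well therefore held more than 50% of the plate's G2/M counts, and at P7 and P14 it took 2 wells. Without the richest well, 91, 34, 135, 16, 9, 6 and 29 counts were left. Blood markers, at 989 to 3320 CPM, were highest at P42, and their part in the G2/M counts was not tested. Top2a had 16, 7, 29, 16, 0, 1 and 11 counts and Ube2c 29, 0, 14, 10, 1, 0 and 7 counts. Pcna had 37, 31, 45, 29, 23, 17 and 19 counts and Ccnd1 42, 18, 15, 7, 7, 8 and 9 counts. Pcna was thus found at every age, including those at which Top2a and Ube2c were at 0 or 1.

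**Figure D4:**
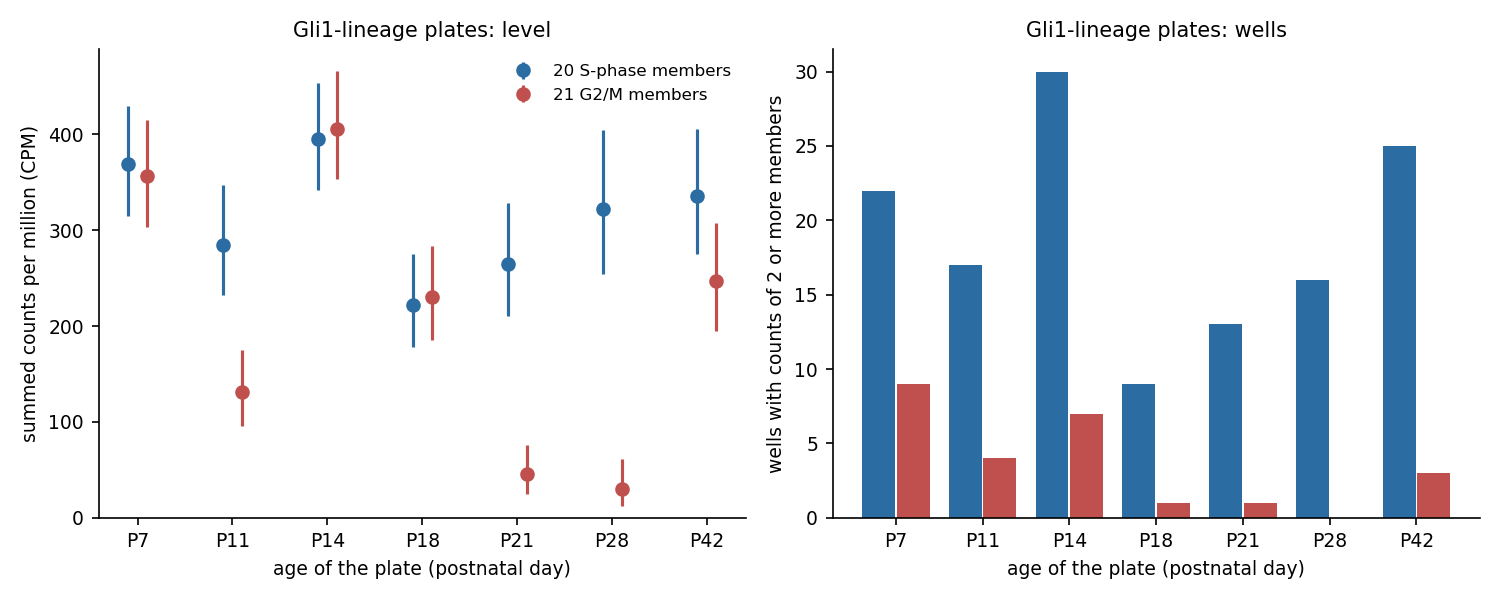
Left, summed level of S-phase and G2/M genes (CPM) on each Gli1-lineage plate by age in postnatal days, with exact Poisson 95% intervals; right, number of wells with counts of at least 2 genes of either list. S-phase levels lie between 222 and 395 CPM, while G2/M levels run from 29.7 CPM at P28 to 406 CPM at P14.

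A slope on log2 age was fitted over the 7 plates with edgeR's quasi-likelihood test and Benjamini-Hochberg adjustment over 4390 genes, and 0 genes (0%) passed an adjusted p of 0.05, with 427 (9.73%) at an unadjusted p under 0.05. DESeq2 called 128 genes (2.92%). Only 4 of the 44 members had enough counts to be tested, and 0 of the 4 were called by edgeR or had an unadjusted p under 0.05 in it. DESeq2 gave an adjusted p for Pcna alone (0.808) and none for Slbp, Tipin and Top2a. The edgeR slope per doubling of age was -0.28 (SE 0.19, adjusted p = 0.691) for Pcna, 0.04 (SE 0.28, adjusted p = 0.981) for Slbp, -0.15 (SE 0.32, adjusted p = 0.927) for Tipin and -0.38 (SE 0.50, adjusted p = 0.871) for Top2a. Over the alternatives run, the adjusted p ranged from 0.591 to 0.930 for Pcna, 0.886 to 0.997 for Slbp, 0.776 to 0.992 for Tipin and 0.792 to 0.981 for Top2a. A trend with age in these 4 genes was not detectable at this depth, and for the other 40 members the counts were too few to test.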

How the data were processed

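The authors deposited counts, all whole numbers, for each gene in each barcode (3 droplet libraries) or well (7 plates), per the file headers and values. The build was mm10 per the submitters' processing notes, and the droplet matrices were written by software 3.1.0 (P11, P18) and 3.0.2 (P56) per the file headers. The aligner, the annotation and any collapsing of plate counts to molecules are not given in the sources used here. Droplet libraries held 40082499 to 53725468 counts (median 5972 to 12848 per barcode) and kept plates 235722 to 506912. The members and gene lists were chosen with earlier results of these data known.

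Barcodes or wells were kept from 500 detected genes up and to 10% mitochondrial counts. Scrublet (scanpy 1.11.5, Python 3.11.15) marked only 1 to 3 cells per droplet library by its own threshold, so the highest scores were removed at 0.8% per 1000 cells (70, 233 and 211 cells). Plates were not scored for doublets. Cells were clustered on 2000 variable genes, 30 principal components and 15 neighbours (leidenalg 0.10.2, resolution 1), leaving out 244 cell cycle and histone genes. A class name needed 3 markers at 2-fold and in 10% of a cluster's cells, and 1 cluster of 80 cells stayed unnamed. Erythroid-like barcodes formed no cluster and were defined after seeing the data as those with at least 1% haemoglobin counts, with no gene minimum. The authors' cell annotation was not used.

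UMIs were summed per class and library. For shares, cells were thinned to 2000 UMIs, leaving out shallower cells (35 at P11 in the mesenchymal-like class). With 1 library per age no droplet difference was tested. A value of 0 allows up to 3 counts. On plates, summed counts were fitted with edgeR 4.0.16 (R 4.3.3, TMM, a minimum of 10 counts in 4 plates, slope on log2 age), and with DESeq2 1.42.0 as an alternative. The edgeR fit was tried on simulated counts with a single spread for all genes, which was not matched to these plates. That trial does not show what the fit can detect here. Where pooled tissue was the only sample, p-values measure the spread between these plates.

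Given in detail were the 6 S-phase and 6 G2/M genes with the most UMIs, the 3 cyclins, the 2 largest and 2 smallest share ratios per pair of classes, the wider list's inhibitors, D cyclins and 3 most abundant others, and the plate genes past the filter. Alternatives were stricter cells, no doublet removal, clusters with cell cycle genes, classes from each cell's own markers, other thinning, other minimums, other scalings and leaving out single genes, clusters or plates.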

Additional observations from a re-analysis of the deposited data

How the results depend on the processing

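No paired analysis was possible because 1 library stands for each age. Of 148 alternatives, the 14 for the number of plate genes with a slope all gave 0, 20 of 22 counts past 2-fold stayed within 1.5 times, and 28 of 41 shares and 4 of 18 ratios stayed within counting error. That interval is wide for rare cells: the P18 mesenchymal share was 0.758% without doublet removal and the P56 share 0.0882% without the Crabp2 cluster. With classes from each cell's own markers, 2 S-phase genes in place of 9 were 2-fold lower at P18 and 4 in place of 7 at P56, and the share with at least 2 G2/M genes was 1.81% in mesenchymal-like cells at P11, 44.6% in immature granulocyte-like and 50.3% in erythroid-like cells, a class in which 0 of 432 cells had 1% haemoglobin. Without thinning the shares were 7.68%, 4.19% and 0.947% in mesenchymal-like cells by age, 20.5% in erythroid-like and 71.2% in immature granulocyte-like cells. At 1000 UMIs they were 45.5% in B-precursor-like and 40.7% in immature granulocyte-like cells, at a minimum of 3 genes 51.0% and 48.5%, and with cell cycle genes in the clustering 49.8% in immature granulocyte-like cells. The S-phase to G2/M ratio of mesenchymal-like cells at P11 was 0.881 in stricter cells, 0.918 with cell cycle genes in the clustering, 1.24 by own markers and 0.938 without the top gene. That of B-precursor-like cells was 0.685 in stricter cells, 0.713 without doublet removal, 0.724 by own markers, 0.777 without the top gene and 0.711 without the Nrgn cluster (chosen after seeing the data). That of immature granulocyte-like cells was 0.799, 0.803 and 0.760 by the first 3 of these and 0.894 with cell cycle genes in the clustering, and that of erythroid-like cells was 1.00 by own markers. The cause was not tested for any of these. Without the cell richest in G2/M UMIs at each age, the log2 difference of P18 against P11 turned to 0.89 in the Matn1, 0.27 in the Tnn and 0.62 in the Msmp cluster. On the plates, the Slbp slope was -0.02 with no filter, and -0.18 (without P42) to 0.14 (without P7) with single plates left out, and with file layout as a term Tipin was 0.09 and Top2a 0.34. With no filter all 44 members were tested, 8 had an unadjusted p under 0.05 and 0 were called, while 307 of 22452 genes were. For erythroid-like barcodes, stricter cells, doublet removal and other clusters were not run, since the class does not come from clusters. Depth limits rare cells most, as 5 and 7 cells carry the P18 and P56 mesenchymal shares.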
